A study of Homo sapiens with 12 samples.

Results

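Adding OTUD5 knockdown to cells already depleted of TRIP12 was examined by comparing HT1080 cells that had received both siRNAs (siTRIP12+siOTUD5) with cells that had received siTRIP12 alone. HT1080 is an established human fibrosarcoma line. These groups hold 3 libraries each, which are 6 of the 12 libraries of the series, and they were taken by the names of their read-count columns. The other 6 libraries, 3 from cells given siOTUD5 alone and 3 from cells given a scrambled siRNA (Scrambled), serve to sort the changes: siTRIP12 against Scrambled gives the TRIP12-knockdown changes, and siOTUD5 against Scrambled gives the effect of the same OTUD5 siRNA in cells with TRIP12. All groups are the same line given siRNA, with no drug or stimulus named in the labels. The amounts and sequences of the siRNAs, the time after transfection, and whether libraries of a group came from separate cultures are not given in the sources used here, so p-values measure the spread between these libraries, which may be technical.

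TRIP12 is a HECT-domain E3 ubiquitin ligase, an enzyme that attaches ubiquitin to substrates and can mark them for the proteasome. OTUD5 is a deubiquitylase of the OTU family, which cleaves ubiquitin chains and can protect a protein from degradation. NF-kB is a family of dimeric transcription factors that inhibitor proteins hold in the cytoplasm until ubiquitin-dependent signalling, for instance downstream of the TNF receptor, has those inhibitors destroyed, and its target genes include its own inhibitors, cytokines and acute-phase proteins.

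Library totals ran from 37912312 to 43881471 reads, and low counts left 16283 of 46427 genes to test. Of 12 mesenchymal markers of a fibrosarcoma, 11 were tested. Their summed level per library was 5255 to 5313 CPM in siTRIP12+siOTUD5 and 4888 to 5337 CPM in siTRIP12. CPM is the read count scaled to the size of its library. On adding siOTUD5, 1 of the 11 was called higher and 1 lower, beside 8.78% and 6.93% of all genes tested. Epithelial markers were mostly at or near 0, with KRT5, KRT14 and CLDN3 listed at 0 in every library. The epithelial sum of 431.8 to 444.3 CPM in siTRIP12+siOTUD5 against 353.4 to 398.1 CPM in siTRIP12 came almost wholly from KRT8 and KRT18. Of the 4 epithelial markers tested, KRT18 was called higher, CLDN4 was called lower (log2 fold change -1.23) and KRT8 was not called. Among leukocyte markers CD8A and MS4A1 were listed at 0, and a sum of 88.61 to 98.09 CPM in siTRIP12+siOTUD5 against 126.1 to 144.9 CPM in siTRIP12 came almost wholly from CD68 and CSF1R, both of which were called lower (1 leukocyte marker was without siTRIP12 replicate 3 or siTRIP12+siOTUD5 replicate 1). Endothelial and muscle markers summed to 6.525 to 6.634 CPM in siTRIP12+siOTUD5 and 5.77 to 7.21 CPM in siTRIP12, with CLDN5, MYH11, MYOD1 and MYOG listed at 0. In bulk RNA, fewer cells of a kind and less RNA per cell cannot be told apart.

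Some libraries stood apart. The level of a gene relative to the other libraries followed transcript length, with a Spearman's rho across genes of 0.125, -0.0366 and 0.179 in siTRIP12+siOTUD5 replicates 1 to 3 and of -0.0227, -0.0534 and -0.22 in siTRIP12 replicates 1 to 3. Scrambled replicate 3 had the lowest value (-0.305) and was at 35.8 on the third principal component, with the other Scrambled libraries at -10.9 and -30. The part of transcript length in the results was not tested, but counts are given below with these libraries left out and with a length correction.

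The targeted genes were examined first. OTUD5 (gene 55593, GRCh38.p14 chromosome X, 48922024 to 48958381) was at 10.8, 12.3 and 9.62 CPM in siTRIP12+siOTUD5, against 73.5, 73.9 and 74.0 CPM in siTRIP12. It was at 10.6, 10.8 and 12 CPM in siOTUD5 and at 60.4, 58.5 and 60.5 CPM in Scrambled. The libraries given siOTUD5 were thus far below the others, with or without siTRIP12. OTUD5 was itself higher in siTRIP12 than in Scrambled, by 0.30 ± 0.07 on the log2 scale (edgeR adjusted p = 0.0035). The log2 fold change of siTRIP12+siOTUD5 against siTRIP12 was -2.76 ± 0.08 (SE, edgeR adjusted p = 2.4e-13).

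TRIP12 (gene 9320, chromosome 2, 229763837 to 229923186) was at 54.4, 50.1 and 55.0 CPM in siTRIP12+siOTUD5, against 38.9, 46.2 and 40.2 CPM in siTRIP12, and at 314, 315 and 317 CPM in siOTUD5 against 346, 342 and 276 CPM in Scrambled. Both groups given siTRIP12 were far below the others, at 16.5% of the Scrambled mean in siTRIP12+siOTUD5 and 13.0% in siTRIP12. Yet the groups did not overlap: TRIP12 mRNA was 0.35 ± 0.08 higher on the log2 scale in siTRIP12+siOTUD5 than in siTRIP12 (edgeR adjusted p = 0.0079), or 127% of it. With replicate 3 of both groups left out this call was lost (edgeR adjusted p = 0.116). The part of this residual difference in the restored changes below was not tested. For each of these comparisons of OTUD5 and TRIP12 with non-overlapping groups an exact two-sided permutation test gave p = 0.1, below which a design with 3 libraries a group cannot go.

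Adding siOTUD5 to siTRIP12 changed 2557 genes, 1429 higher and 1128 lower, which are 15.7%, 8.78% and 6.93% of the genes tested. Most changes were small: 128 genes moved by more than 2-fold, 48 higher and 80 lower. Left out singly, siTRIP12+siOTUD5 replicate 1 gave 1495 calls (892 higher, 603 lower), and siTRIP12+siOTUD5 replicate 3 gave 738 lower. With replicate 3 of both groups left out 1302 genes were called, and with the transcript length correction 3032.

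siTRIP12 against Scrambled had called 5194 genes (31.9% of those tested; 2367 higher or 14.5%, 2827 lower or 17.4%), and siTRIP12+siOTUD5 against Scrambled called 5024 (30.9%). Each TRIP12-knockdown change was sorted by calls alone. A change was named restored where adding siOTUD5 was called in the opposite direction, kept where adding siOTUD5 was not called and the double knockdown still differed from Scrambled the same way, and extended where adding siOTUD5 moved it further. By this rule 1212 changes were restored (23.3% of the TRIP12-knockdown changes), 2490 were kept (47.9%), 176 were extended (3.39%) and 1316 were undecided (25.3%). Both comparisons use the same 3 siTRIP12 libraries, so they are not independent. Chance errors in those libraries push the comparisons to opposite signs, which favours restored over extended. The counts of each class are descriptions without a test.

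Among the 1212 restored genes, 836 were no longer called against Scrambled in siTRIP12+siOTUD5, 309 still were in the direction of the TRIP12-knockdown change, and 67 passed beyond Scrambled. Of the 1212, 789 had been lower and 423 higher in siTRIP12 than in Scrambled. They include the targeted genes themselves, TRIP12 as restored in part and OTUD5 as passing beyond Scrambled. Where siTRIP12 had moved a gene by at least 2-fold, 66 of 169 lowered genes were restored (39.1%) and 69 of 345 raised genes, while 208 of all 514 were kept (40.5%). A further 769 genes were newly made changes, called in siTRIP12+siOTUD5 against both siTRIP12 and Scrambled in the same direction but not in siTRIP12 against Scrambled. These were 30.1% of the genes changed by adding siOTUD5, with 357 higher and 412 lower. Another 400 (15.6%) were called only against siTRIP12. Without siTRIP12+siOTUD5 replicate 1 there were 774 restored, 99 extended and 425 newly made genes, and without replicate 3 of both groups 630, 72 and 436. Without siTRIP12+siOTUD5 replicate 3, 508 were newly made. Extended genes numbered 102, 110 and 105 without siTRIP12 replicates 1, 2 and 3, and 276 without Scrambled replicate 3.

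**Figure D1:**
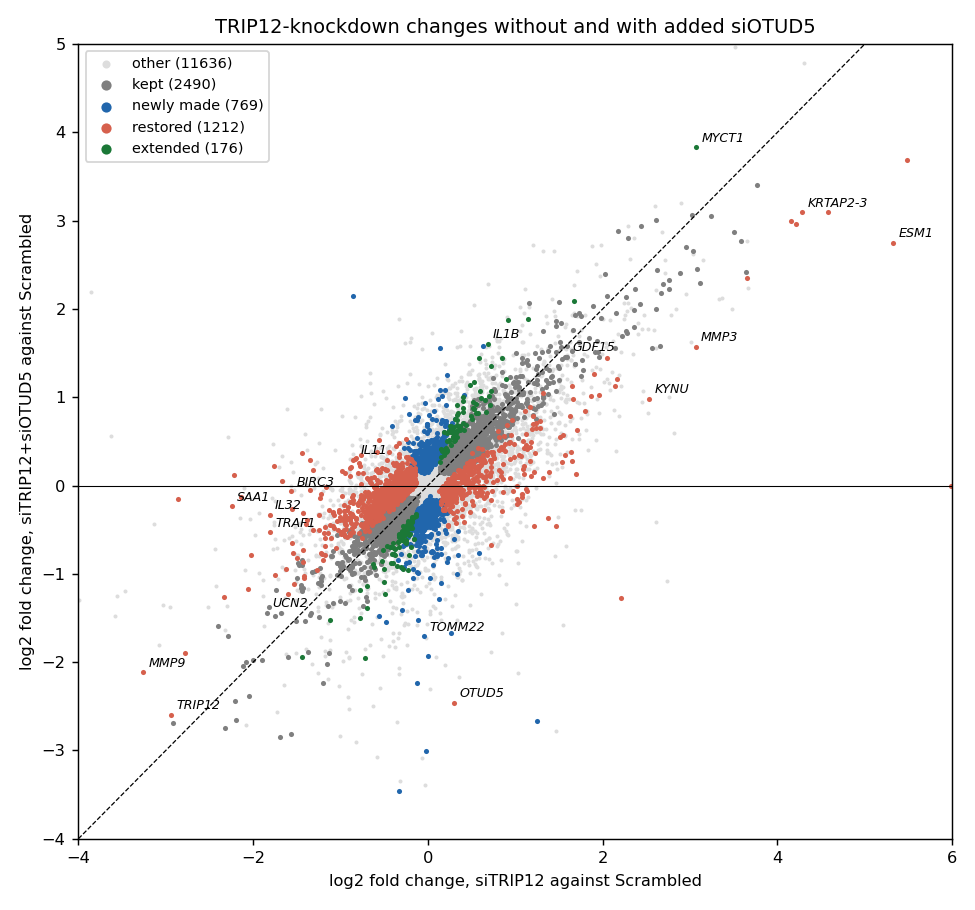
Each point is one tested gene: the x axis gives its log2 fold change in siTRIP12 against Scrambled and the y axis in siTRIP12+siOTUD5 against Scrambled, which share the Scrambled libraries. On the dashed diagonal both are equal and on the solid line the double knockdown equals Scrambled; the 1212 restored genes (red) lie between diagonal and line or past it, the 2490 kept genes (dark grey) along the diagonal, and 38 genes lie outside the axes.

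The 10 largest rises that met the naming rule were mostly those of inflammatory and innate-defence genes that siTRIP12 had lowered. SAA1 (gene 6288, chromosome 11, 18266264 to 18269967), a serum amyloid A acute-phase protein, was at 16.0, 16.2 and 13.7 CPM in siTRIP12+siOTUD5, against 4.05, 3.36 and 3.99 CPM in siTRIP12, and at 12.9, 12.9 and 13.9 CPM in siOTUD5 against 17.4, 16.7 and 19.97 CPM in Scrambled. siTRIP12 alone stood low, and the double knockdown was back near the levels of the groups with TRIP12. The rise was 2.01 ± 0.11 on the log2 scale, or 4.03-fold (edgeR adjusted p = 3.2e-09), and the remaining difference from Scrambled was -0.23 ± 0.10 (adjusted p = 0.075). Its neighbour and near-identical paralog SAA2 rose by 2.00 ± 0.14, and reads may not be separable between them.

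BIRC3, an inhibitor of apoptosis protein and ubiquitin ligase of the TNF receptor complex, was at 7.24, 7 and 8.08 CPM in siTRIP12+siOTUD5, against 2.47, 2.83 and 2.60 CPM in siTRIP12. In siOTUD5 it was at 6.42, 8.28 and 8.80 CPM, against 7.78, 8.52 and 7.07 CPM in Scrambled. Thus siTRIP12 stood alone below the other groups, which overlapped one another. Its rise was 1.5 ± 0.14 (edgeR adjusted p = 1.4e-06), 95.8% of the fall that siTRIP12 had made.

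TRAF1, an adaptor of TNF receptors, was at 15.6, 14.6 and 13.7 CPM in siTRIP12+siOTUD5, against 6.73, 5.87 and 5.46 CPM in siTRIP12, and at 20.6, 22.8 and 20.1 CPM in Scrambled. The cytokine gene IL32 was at 29.6, 29.3 and 25.9 CPM in siTRIP12+siOTUD5, against 10.2, 9.48 and 10.7 CPM in siTRIP12, and at 32.4, 35.1 and 39.3 CPM in Scrambled. Both were restored in part, by 70.8% of the fall for TRAF1 (log2 rise 1.28 ± 0.11) and 81.7% for IL32 (1.48 ± 0.10), and both still stood below Scrambled in every library. C3, the central complement component, was at 76.6, 75.1 and 77.4 CPM in siTRIP12+siOTUD5, against 33.4, 32.2 and 28.4 CPM in siTRIP12, and at 96.2, 108 and 71.7 CPM in Scrambled, whose wide range the double knockdown fell within.

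MMP9, a gelatinase, was the least restored of these. It was at 6.95, 6.39 and 7.10 CPM in siTRIP12+siOTUD5, against 3.21, 3.02 and 2.99 CPM in siTRIP12, and at 16.8, 13.5 and 15.5 CPM in siOTUD5 against 30.8, 30.2 and 27.4 CPM in Scrambled. The rise of 1.15 ± 0.11 (edgeR adjusted p = 1.6e-06) was 35.2% of the fall, and siOTUD5 alone lowered the gene by 0.95 ± 0.09. Among the 10 largest rises, ANKRD46, an ankyrin-repeat gene, was restored fully (1.13 ± 0.12), and the neural adhesion gene NTM (1.15 ± 0.08) and the cytokine gene IL11 (1.13 ± 0.07) passed beyond Scrambled.

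**Figure D2:**
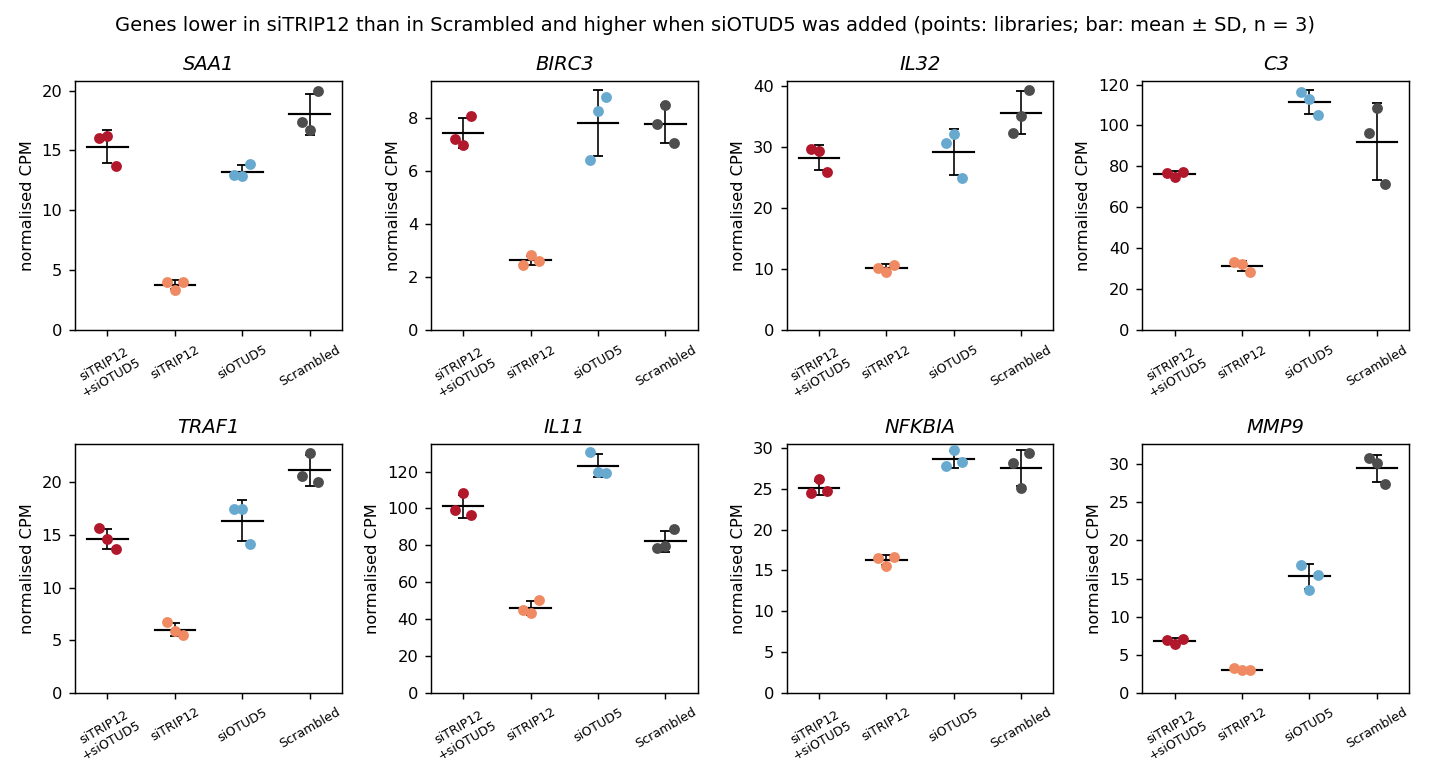
Normalised CPM of 8 genes that were lower in siTRIP12 than in Scrambled and higher when siOTUD5 was added; points are libraries, and bars are mean ± SD (n = 3) for siTRIP12+siOTUD5, siTRIP12, siOTUD5 and Scrambled, from left to right. In each panel the 3 siTRIP12 libraries lie below those of every other group; SAA1 is at 13.7 to 16.2 CPM in siTRIP12+siOTUD5 and at 3.36 to 4.05 CPM in siTRIP12, while MMP9 stays below 7.2 CPM in both groups given siTRIP12.

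Of 15 NF-kB subunits and feedback inhibitors, 9 were called higher, 1 lower and 5 were not called on adding siOTUD5. Over all genes tested 8.78% were called higher and 6.93% lower. The median log2 change was 0.36 against 0.00 over all genes tested. siTRIP12 had lowered 8 of the 15 and raised 2, beside 17.4% and 14.5% of all genes tested. NFKBIA, which encodes the inhibitor that retains NF-kB in the cytoplasm, was at 24.5, 26.1 and 24.7 CPM in siTRIP12+siOTUD5, against 16.5, 15.5 and 16.6 CPM in siTRIP12, and at 28.2, 25.1 and 29.4 CPM in Scrambled. The subunit gene RELB was at 25.9, 28.1 and 21.7 CPM in siTRIP12+siOTUD5, against 14.3, 14.4 and 17.1 CPM in siTRIP12, and at 20.1, 22.8 and 23.2 CPM in Scrambled. For both genes siTRIP12 lay below all other libraries and the double knockdown overlapped Scrambled. The log2 rises were 0.63 ± 0.07 for NFKBIA and 0.72 ± 0.10 for RELB (edgeR adjusted p = 2e-05 and 7.6e-05).

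The other subunit genes behaved alike except RELA, which was not called (0.07): NFKB1 rose by 0.24, NFKB2 by 0.41 and REL by 0.44. TNFAIP3, a ubiquitin-editing enzyme that shuts the pathway off, rose by 0.72 ± 0.13, and the inhibitor genes TNIP1, NFKBIE and NFKBIZ by 0.36, 0.38 and 0.43. NFKBIB was the member that fell (-0.38), and siOTUD5 alone gave -0.51 for it. Without siTRIP12+siOTUD5 replicate 1, or without its replicate 2, 6 members were higher, and 0 passed the glmTreat test for a change beyond 1.5-fold. The TNF receptor signalling complex is set beside all genes tested, of which 8.78% were called higher and 6.93% lower. Of the 21 genes of this complex 16 were not called, among them RIPK1 (0.12) and the receptor TNFRSF1A (-0.06). TRAF1, BIRC3 and BIRC2 rose, and the kinase subunits CHUK (-0.17) and IKBKG (-0.25) fell. Without siTRIP12 replicate 1 0 members were called lower, and without any 1 of the siTRIP12+siOTUD5 libraries 1 was, not always one of these.

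Stretches around NF-kB motifs before the start of 5 restored genes are shown as examples from the named genes with a match. They come from RefSeq promoters of build GRCh38.p14, 5′ to 3′ on the gene's strand, with the motif in capitals and 10 bases on each side.
BIRC3 (chr11:102317275-102317304, plus strand): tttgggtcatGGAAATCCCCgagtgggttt
IL32 (chr16:3065294-3065323, plus strand): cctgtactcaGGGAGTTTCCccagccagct
NFKBIA (chr14:35404811-35404840, minus strand): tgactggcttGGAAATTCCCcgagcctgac
TNFAIP3 (chr6:137867194-137867223, plus strand): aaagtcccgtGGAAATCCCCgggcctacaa
IRF1 (chr5:132490804-132490833, minus strand): ggccagggctGGGGAATCCCgctaagtgtt
BIRC3 and TNFAIP3 share the same 10 letters. IL32 also has a match shifted by 1 base, and BIRC3 and TNFAIP3 have another match each. Other named genes with a match included SESN2, an extended rise, LAMB3, a newly made rise, COL6A2, RRM2, AMOTL2, HLA-C and OAS3. The 250 bases before each start were searched on both strands, and 675 of 11893 tested genes with such a promoter held the NF-kB motif (5.68%). It was found for 5 of the 13 NF-kB subunit and inhibitor genes with a promoter, 4 of 9 cytokine and chemokine genes, 2 of 5 of the largest rises and 0 of 9 of the largest falls. Fewer matches were found for the TNF receptor complex (2 of 18), acute-phase genes (1 of 6) and metalloproteinases and their inhibitors (0 of 5). The AP-1 motif TGANTCA, which is the same on both strands, was in 523 promoters (4.4%), among them that of IL11 (chr19:55370543-55370569, minus strand, gcagggagggTGAGTCAggatgtgtca). Among other named genes the AP-1 motif was found for IL1A, PLAUR, ANKRD1 and NEDD4, which rose on adding siOTUD5. It was also found for LCTL, CLDN4, CD68 and CSF1R, which fell, and for CA9, UCN2 and CD63, which were not called. A match describes letters in a window and is not a bound site.

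Of 24 cytokine and chemokine genes, the secreted targets, 12 were tested and 6 were listed at 0 in every library, CXCL1 and CXCL2 among them. Whether an exact 0 in all 12 libraries reflects expression was not tested. On adding siOTUD5, 8 were called higher and 0 lower, beside 8.78% and 6.93% of all genes tested. The median was 0.74, but the 8 came to that rise from different places. IL11, IL32, CSF1 (0.37) and the IL6-family gene LIF (0.56) had been lowered by siTRIP12, IL1B had been raised, and IL1A and the chemokine gene CCL20 had not been called. IL6 was called only against siTRIP12 (1.21 ± 0.33, edgeR adjusted p = 0.018) at 1.21, 1.59 and 1.26 CPM, against 0.691, 0.434 and 0.618 CPM in siTRIP12. CCL20 was at 1.30, 0.898 and 1.11 CPM in siTRIP12+siOTUD5, against 0.134, 0 and 0.283 CPM in siTRIP12, a handful of reads per library. The chemokine CXCL8 (0.12) was not called.

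IL11 is a gp130 cytokine made by fibroblasts. It was at 99.2, 108 and 96.2 CPM in siTRIP12+siOTUD5, against 45.0, 43.3 and 50.5 CPM in siTRIP12, and at 131, 120.0 and 119 CPM in siOTUD5 against 78.4, 79.6 and 88.8 CPM in Scrambled. Every siTRIP12+siOTUD5 library thus lay above every siTRIP12 and every Scrambled library, and below every siOTUD5 library. INHBA, which encodes the activin A subunit, likewise overshot, at 35.1, 33.4 and 35.1 CPM in siTRIP12+siOTUD5, against 12.9, 16.7 and 18.2 CPM in siTRIP12, and at 26.5, 29.0 and 26.0 CPM in Scrambled. siOTUD5 alone had left INHBA at 29.5, 27.5 and 22.8 CPM, overlapping Scrambled. In contrast, TGFB2, a ligand of the same superfamily, was restored in part, at 7.12, 7.16 and 7.23 CPM in siTRIP12+siOTUD5, against 4.03, 4.32 and 3.06 CPM in siTRIP12, and at 11.1, 11.5 and 11 CPM in Scrambled.

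Acute-phase, complement and innate-defence genes gave 5 rises (SAA1, SAA2, C3, PTX3 and IRAK2) and 0 falls among 10 tested. Over all genes tested 8.78% rose and 6.93% fell. siTRIP12 had lowered 7 of the 10, beside 17.4% of all genes tested. IRAK2, a kinase of the interleukin-1 receptor pathway, rose by 1.09 ± 0.07 and overshot Scrambled by 0.21. Not all came back: C1R, a complement protease, had a log2 fold change of -1.07 in siTRIP12+siOTUD5 against Scrambled and of -0.72 in siTRIP12 against Scrambled, and the superoxide dismutase gene SOD2 had -0.20 in siTRIP12+siOTUD5 and -0.33 in siTRIP12. Among 29 tested genes of the type I interferon response 6 rose and 0 fell, among them the antiviral gene OAS3 (0.50 ± 0.11), IRF1 and the antigen-presentation gene B2M (0.22 ± 0.07). Without replicate 3 of both groups 3 of them were called. IRF1, a transcription factor with the NF-kB motif shown above, was at 19.7, 18.9 and 18.7 CPM in siTRIP12+siOTUD5, against 12.1, 13.6 and 12.6 CPM in siTRIP12, and at 20.8, 20.5 and 17.2 CPM in Scrambled.

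Genes that act outside the cell on matrix and plasmin followed. Of 9 tested genes of plasminogen activation 4 rose and 0 fell, beside 8.78% and 6.93% of all genes tested. The activator PLAU, at 332, 343 and 335 CPM in siTRIP12+siOTUD5 against 207, 204 and 243 CPM in siTRIP12, was restored by 57.5% of the fall that siTRIP12 had made, while its receptor gene PLAUR, at 163, 162 and 166 CPM in siTRIP12+siOTUD5 against 95.9, 98.9 and 114 CPM in siTRIP12, was not called in siTRIP12 against Scrambled and was a newly made rise. S100A10, a plasminogen-binding protein gene, rose by 0.35 ± 0.08.

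Of 26 collagen and matrix glycoprotein genes 12 rose and 2 fell (LAMA4 by 0.66 and THBS1 by 0.27 on the log2 scale). The median of the list was 0.12. Over all genes tested 8.78% rose and 6.93% fell, so the share of falls was near that of all genes. siTRIP12 had raised 7 and lowered 10 of the 26, beside 14.5% and 17.4% of all genes tested. The falls numbered 5 without Scrambled replicate 3, and 1 without siTRIP12 replicate 1 or without siTRIP12+siOTUD5 replicate 1 or 2. COL6A2 was restored fully (0.35 ± 0.05), SPARC, a collagen-binding matricellular protein gene, in part (0.29 ± 0.05), and the laminin chain gene LAMB3 was a newly made rise (0.35 ± 0.06). Among 13 metalloproteinases and their inhibitors, MMP9 and the membrane-bound MMP14 (0.41 ± 0.06) rose, and MMP3 and MMP1 fell.

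The changes that ran the other way, raised by siTRIP12 and lowered on adding siOTUD5, were led by genes that are barely expressed in Scrambled. ESM1, a secreted proteoglycan (gene 11082, chromosome 5, 54977867 to 54985593), was at 2.87, 2.17 and 2.32 CPM in siTRIP12+siOTUD5, against 17.1, 13.2 and 13.7 CPM in siTRIP12, and at 0.850, 0.727 and 0.853 CPM in siOTUD5 against 0.396, 0.360 and 0.333 CPM in Scrambled. The 4 groups did not overlap. The fall of 2.58 ± 0.15 on the log2 scale (edgeR adjusted p = 5.9e-09) undid 48.4% of the rise, and siOTUD5 alone raised ESM1 by 1.15 ± 0.23.

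MMP3, the stromelysin that degrades proteoglycans and other matrix proteins, had the same order. It was at 17.2, 15.1 and 17.7 CPM in siTRIP12+siOTUD5, against 48.8, 46.0 and 45.5 CPM in siTRIP12, and at 13.0, 12.2 and 12.2 CPM in siOTUD5 against 3.96, 6.48 and 6.35 CPM in Scrambled. The collagenase gene MMP1 fell to 4.05, 4.33 and 4.66 CPM in siTRIP12+siOTUD5, against 9.22, 8.20 and 8.14 CPM in siTRIP12, and was at 3.22, 2.93 and 2.62 CPM in Scrambled. Their log2 falls were -1.49 ± 0.12 and -0.97 ± 0.13. KYNU, an enzyme of tryptophan breakdown, fell by 1.55 ± 0.25 on the log2 scale at levels below 3 CPM.

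All 4 tested hair keratin-associated genes, KRTAP2-1 to KRTAP2-4, fell on adding siOTUD5 (median -1.22) after siTRIP12 had raised them (median 4.25). They are close paralogs whose reads may be shared, and the call of KRTAP2-2 was lost without replicate 3 of both groups (edgeR adjusted p = 0.061). KRTAP2-3, the most abundant, was at 17.1, 22.8 and 18.6 CPM in siTRIP12+siOTUD5, against 40.0, 43.5 and 50.2 CPM in siTRIP12, and at 2.77, 1.78 and 2.28 CPM in Scrambled. The double knockdown thus remained well above Scrambled.

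Replication-dependent histone genes, normally expressed in S phase with mRNAs that end in a stem-loop and not a poly(A) tail, moved back toward Scrambled. Of 18 tested genes of the histone list, 9 fell and 0 rose on adding siOTUD5 (median -0.69), beside 6.93% and 8.78% of all genes tested. siTRIP12 had raised 13 of the 18 (median 0.83), beside 14.5% of all genes tested. Of these histone genes 0 remained called in siTRIP12+siOTUD5 against Scrambled. Their summed levels were 383.1, 396.2 and 389.5 CPM in siTRIP12+siOTUD5, against 565.0, 540.5 and 530.7 CPM in siTRIP12, and 379.4, 373.1 and 417.5 CPM in Scrambled. H2AC6 was at 9.38, 9.70 and 9.50 CPM in siTRIP12+siOTUD5, against 23.9, 22.9 and 20.1 CPM in siTRIP12, and at 11.6, 10.5 and 11 CPM in Scrambled. H2BC4 (-1.06 ± 0.13) and H2BC12 (-0.54 ± 0.05) fell as well. These libraries were made by poly(A) selection, and 17 other RNAs without a tail, 11 of them ribosomal, had medians of -0.14 on adding siOTUD5 (2 called higher and 0 lower) and 0.84 in siTRIP12 against Scrambled (2 called higher and 3 lower). The part of poly(A) selection in the histone values was not tested.

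Other fully restored falls were TREX1, a DNA exonuclease (-1.21 ± 0.23, lost without replicate 3 of both groups with an edgeR adjusted p = 0.0654), ST8SIA1, a ganglioside synthase (-1.08 ± 0.21), and MSANTD3-TMEFF1, a readthrough of neighbouring genes whose reads may not be separable (-1.22 ± 0.31). The call of MSANTD3-TMEFF1 was lost without siTRIP12+siOTUD5 replicate 1 or 3, siTRIP12 replicate 3, or replicate 3 of both groups (highest edgeR adjusted p = 0.141). Its Scrambled libraries ranged widely, at 1.54, 2.75 and 4.47 CPM. Falls that passed beyond Scrambled were SLC4A8, a bicarbonate transporter (-1.40 ± 0.24), and DGKG, a diacylglycerol kinase (-0.83 ± 0.11). SLC4A8 was low throughout, at 1.09, 0.977 and 1.06 CPM in siTRIP12+siOTUD5, against 2.56, 2.92 and 2.78 CPM in siTRIP12.

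Many of the TRIP12-knockdown changes were kept. GDF15, a stress-induced cytokine, was at 336, 409 and 365 CPM in siTRIP12+siOTUD5, against 345, 384 and 490.1 CPM in siTRIP12, and at 265, 258 and 277 CPM in siOTUD5 against 128, 126 and 149.5 CPM in Scrambled. The double knockdown overlapped siTRIP12 and was above Scrambled in every library, with a log2 difference from siTRIP12 of -0.13 ± 0.12. CD22, a sialic-acid-binding lectin, was at 28.9, 26.9 and 27.6 CPM in siTRIP12+siOTUD5, against 26.4, 26.5 and 27.9 CPM in siTRIP12, and 24.9, 24.7 and 25.9 CPM in siOTUD5 against 10.8, 9.34 and 9.07 CPM in Scrambled. In these genes siOTUD5 alone raised the level, whereas added to siTRIP12 it was not called. IL24 (-0.18 ± 0.07), CHAC1, a glutathione-degrading enzyme of the ATF4 response (0.40 ± 0.31), and ZNF582 (-0.34 ± 0.17) were the other kept rises.

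Kept falls were UCN2, an urocortin peptide, CA9, a hypoxia-induced carbonic anhydrase, PLXNA4, a semaphorin receptor, the potassium channel subunit KCNAB3 and CGB5, one of several near-identical chorionic gonadotropin genes. UCN2 was at 7.86, 6.89 and 8.03 CPM in siTRIP12+siOTUD5, against 4.39, 5.76 and 7.24 CPM in siTRIP12, and at 19.9, 20.9 and 21.1 CPM in Scrambled. The difference of the double knockdown from siTRIP12 was 0.40 ± 0.14 (edgeR adjusted p = 0.062) and 0.45 ± 0.17 for PLXNA4 (0.082), so that kept here means that no change passed the threshold, and both were called in some alternative fits.

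Extended changes included IL1B, the inflammasome-processed cytokine. It was at 53.4, 63.6 and 59.3 CPM in siTRIP12+siOTUD5, against 26.6, 28.0 and 38.4 CPM in siTRIP12, and at 58.4, 48.4 and 58.4 CPM in siOTUD5 against 18, 19.2 and 20.6 CPM in Scrambled. Here the groups given siOTUD5 overlapped and siTRIP12 lay between them and Scrambled. MYCT1, known as a MYC target, was at 84.4, 80.1 and 68.1 CPM in siTRIP12+siOTUD5, against 41.4, 46.8 and 49.3 CPM in siTRIP12, and at 29.7, 26.3 and 23.5 CPM in siOTUD5 against 5.03, 5.07 and 6.21 CPM in Scrambled, in 4 levels without overlap. ZNF404 (0.96 ± 0.09), ZNF699 (0.86 ± 0.13) and the stress gene SESN2 (0.65 ± 0.08) were the other large extended rises. Extended falls were ALDOC, a glycolytic aldolase (-0.74 ± 0.07), NACA, a ribosome-associated chaperone subunit (-0.73 ± 0.07), PMVK, an enzyme of the mevalonate pathway (-0.72 ± 0.13), LCTL (-0.70 ± 0.10) and PHF23 (-0.67 ± 0.06).

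The largest newly made change among genes that met the naming rule was the fall of TOMM22, the receptor subunit of the mitochondrial outer membrane translocase (gene 56993, chromosome 22, 38681957 to 38685421). It was at 33.9, 32.5 and 33.5 CPM in siTRIP12+siOTUD5, against 105, 102 and 111 CPM in siTRIP12, and at 22.9, 22.8 and 24.5 CPM in siOTUD5 against 103, 101.1 and 122 CPM in Scrambled. Both groups given siOTUD5 were low, and the fall of 1.67 ± 0.07 on the log2 scale (edgeR adjusted p = 8.4e-11) was smaller than the fall of 2.22 ± 0.07 that siOTUD5 made alone. Of 27 mitochondrial import genes 5 fell and 0 rose, beside 6.93% and 8.78% of all genes tested. TOMM22 apart the falls were between 0.20 and 0.42. Falls of the list numbered 1 without replicate 3 of both groups and 2 without siTRIP12+siOTUD5 replicate 1. They numbered 3 without siTRIP12+siOTUD5 replicate 3 and 10 without Scrambled replicate 3. NDRG4 (-1.25 ± 0.18), SPANXN3, of a family of similar genes (-1.35 ± 0.23), RGS4, a regulator of G-protein signalling (-0.96 ± 0.12), and the secreted chaperone CLU (-0.93 ± 0.06) were the other large newly made falls. SPANXN3 narrowly missed the call in siTRIP12 against Scrambled (0.59 ± 0.22, edgeR adjusted p = 0.0517). It was low, with means of 1.14 CPM in siTRIP12+siOTUD5 and 2.92 CPM in siTRIP12.

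Newly made rises were IL1A, NLRP3, the inflammasome sensor (0.98 ± 0.12), JDP2, a repressor that dimerises with JUN (1.08 ± 0.21), PAPLN (0.90 ± 0.17) and CALD1, an actin-binding regulator of contraction (0.89 ± 0.07). IL1A was at 11.8, 13.6 and 12.7 CPM in siTRIP12+siOTUD5, against 6.97, 5.58 and 7.29 CPM in siTRIP12, and at 13.8, 11.3 and 10.8 CPM in siOTUD5 against 5.97, 5.84 and 6.21 CPM in Scrambled. The groups with siOTUD5 were high and the groups without it low, whether or not TRIP12 was depleted.

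**Figure D3:**
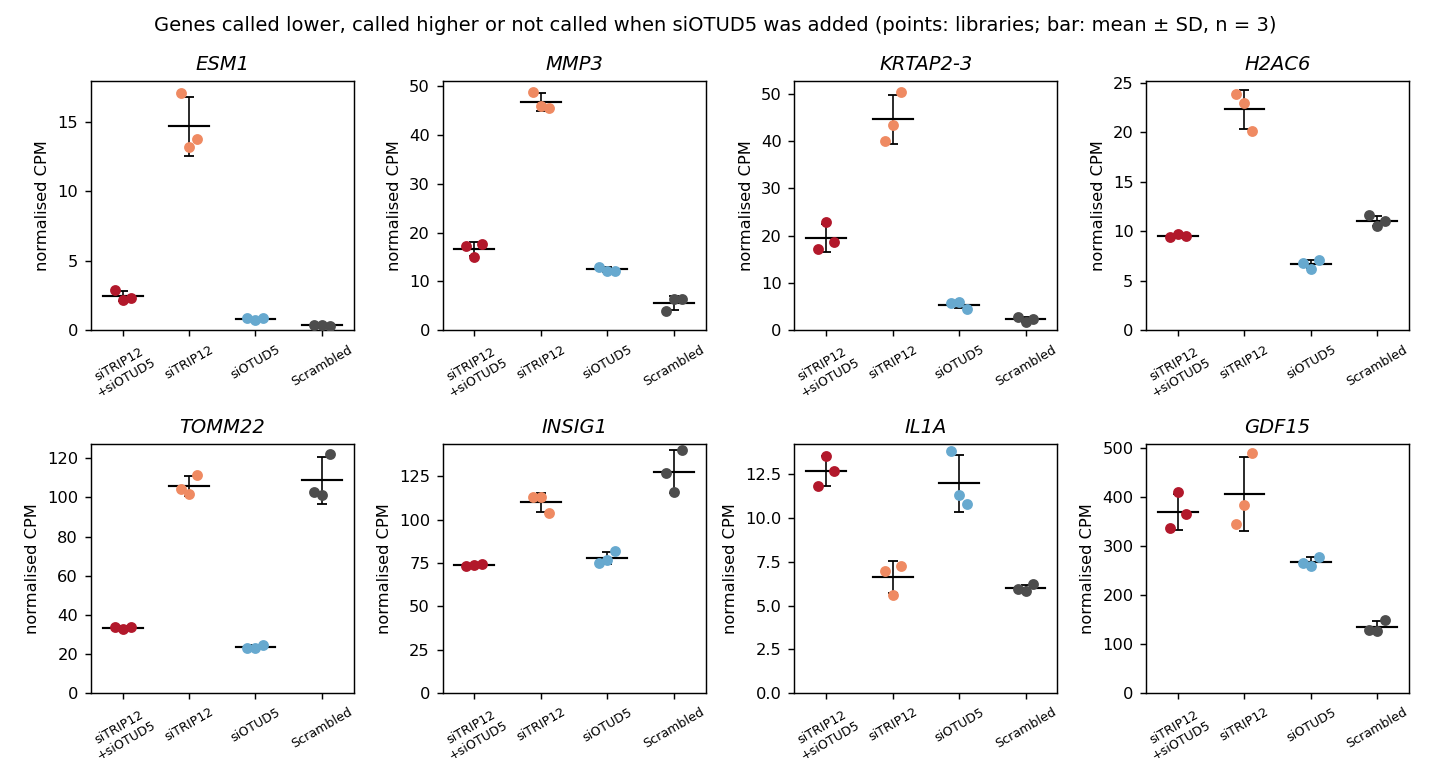
Normalised CPM of 8 genes in siTRIP12+siOTUD5, siTRIP12, siOTUD5 and Scrambled, from left to right; points are libraries, and bars are mean ± SD (n = 3). ESM1, MMP3, KRTAP2-3 and H2AC6 peak in siTRIP12 and are lower in siTRIP12+siOTUD5, TOMM22 and INSIG1 are low and IL1A is high in both groups given siOTUD5, and GDF15 overlaps between siTRIP12+siOTUD5 (336 to 409 CPM) and siTRIP12 (345 to 490.1 CPM).

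Cholesterol synthesis was the list with the most newly made falls. Of 23 genes 13 fell and 1 rose on adding siOTUD5, beside 6.93% and 8.78% of all genes tested. The median was -0.25, and 9 of the falls were newly made. siOTUD5 alone lowered 16 of the 23 and raised 1 against Scrambled (median -0.26), beside 11.9% and 11.4% of all genes tested. INSIG1, the sterol-responsive membrane protein that restrains the pathway, was at 73.2, 74.1 and 74.2 CPM in siTRIP12+siOTUD5, against 113, 113 and 104 CPM in siTRIP12, and at 75.1, 76.7 and 82.0 CPM in siOTUD5 against 127, 116 and 140.5 CPM in Scrambled. INSIG1 was an extended and not a newly made fall, with a log2 fold change of -0.21 ± 0.06 in siTRIP12 against Scrambled. The enzymes EBP (-0.46 ± 0.07), NSDHL (-0.47 ± 0.07) and DHCR7 (-0.41 ± 0.06) fell as well. Without siTRIP12+siOTUD5 replicate 1, 10 genes of the list were called lower.

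Genes of cell division gave modest changes, beside 8.78% of all genes tested called higher and 6.93% lower. siTRIP12 had lowered 17.4% of all genes tested against Scrambled. Among 29 G1/S and replication genes 8 rose and 0 fell (median 0.16), after siTRIP12 had lowered 22, and 12 were kept. RFC3, a clamp-loader subunit, was at 104, 97.1 and 97.8 CPM in siTRIP12+siOTUD5, against 78.5, 73.7 and 75.0 CPM in siTRIP12, and CDT1 and MCM10, licensing and replication-fork factors, rose by 0.34 and 0.28. The rises numbered 3 without replicate 3 of both groups, 5 without siTRIP12 replicate 1 or siTRIP12+siOTUD5 replicate 3, and 16 without Scrambled replicate 3. Of 25 genes of mitosis, NUSAP1, TOP2A and KIF23 rose and 2 fell, with a median of -0.002 against 0.001 over all genes tested. Rises of mitosis genes numbered 0 without siTRIP12 replicate 3 or siTRIP12+siOTUD5 replicate 1 or 3, and 1 without siTRIP12 replicate 1. Their falls numbered 0 to 4 with 1 library left out, the most without Scrambled replicate 3. Of 29 genes of ribosome biogenesis, 4 rose (among them NOP56 by 0.40 ± 0.05) and 0 fell (median 0.03), where siTRIP12 had lowered 17. Without Scrambled replicate 3, 7 of them rose. Hypoxia and glycolysis genes, of which siTRIP12 had lowered 21 of 28, gave 5 rises, such as VEGFA, an angiogenic growth factor (0.50 ± 0.08), and 1 fall, and 12 were kept. The rises numbered 2 without replicate 3 of both groups and 8 without Scrambled replicate 3 or siTRIP12 replicate 2, and the falls 2 without Scrambled replicate 2 or 3.

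Most members of the stress and survival lists were not called, beside 8.78% of all genes tested called higher and 6.93% lower. Of 26 genes of the ATF4 response 6 rose and 0 fell (median 0.32), and 20 were higher in siTRIP12+siOTUD5 than in Scrambled. With replicate 3 of both groups left out 11 rose, and without siTRIP12 replicate 3 alone 13. Among 24 p53 targets 7 rose and 1 fell: BTG2, an antiproliferative gene, rose by 0.50 ± 0.06, and SESN1, a stress-induced sestrin, was the fall, at 32.8, 32.7 and 32.7 CPM in siTRIP12+siOTUD5, against 53.9, 53.7 and 50.3 CPM in siTRIP12. Its paralog SESN2 stood at 103, 107 and 99.9 CPM in siTRIP12+siOTUD5 against 56.9, 65.1 and 75.2 CPM in siTRIP12, so the sestrins went opposite ways. The rising p53 targets numbered 4 without siTRIP12+siOTUD5 replicate 1, siTRIP12 replicate 1, siTRIP12 replicate 3 or replicate 3 of both groups, and 3 without siTRIP12+siOTUD5 replicate 3. Of 24 apoptosis regulators 7 rose and 1 fell, with rises of the survival gene MCL1 (0.41 ± 0.05) and cytochrome c, CYCS (0.53 ± 0.07).

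The signalling, folding and ubiquitin lists are likewise set beside 8.78% of all genes tested called higher and 6.93% lower. Of 27 YAP and TAZ targets 10 rose and 1 fell (2 without Scrambled replicate 3). Among the rises were the kinase NUAK2 (1.07 ± 0.09) and ANKRD1, a stretch-responsive nuclear protein (0.59 ± 0.06). Of 22 AP-1 and immediate early genes 9 rose and 0 fell, with JUN at 0.23 ± 0.05 and KLF10, a TGF-beta-induced factor, at 0.75 ± 0.09, and without siTRIP12 replicate 1 there were 5 rises. ERK feedback genes gave 3 rises (DUSP5, DUSP7 and EPHA2) and 1 fall (SPRY2) of 13, with 2 falls without Scrambled replicate 3 or siTRIP12 replicate 3. Endoplasmic reticulum folding genes gave 5 rises and 1 fall of 24, with the co-chaperone DNAJC3 rising by 0.44 ± 0.07 and calnexin, CANX, by 0.25 ± 0.05. The rises numbered 10 without Scrambled replicate 3 and 3 without replicate 3 of both groups. Heat shock chaperones gave 4 falls and 0 rises of 20, including HSPA1A and HSPA1B, near-identical copies of HSP70 (-0.45 ± 0.06 and -0.37 ± 0.05), and 2 fell without siTRIP12+siOTUD5 replicate 1. Of 33 HECT ligases and OTU deubiquitylases, OTUD5 was the 1 that fell, and 7 rose, among them NEDD4L (0.33 ± 0.06) and NEDD4 (0.30 ± 0.06). With replicate 3 of both groups left out 3 rose, and without siTRIP12 replicate 1, 4 did. Without Scrambled replicate 3, 2 fell.

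**Figure D4:**
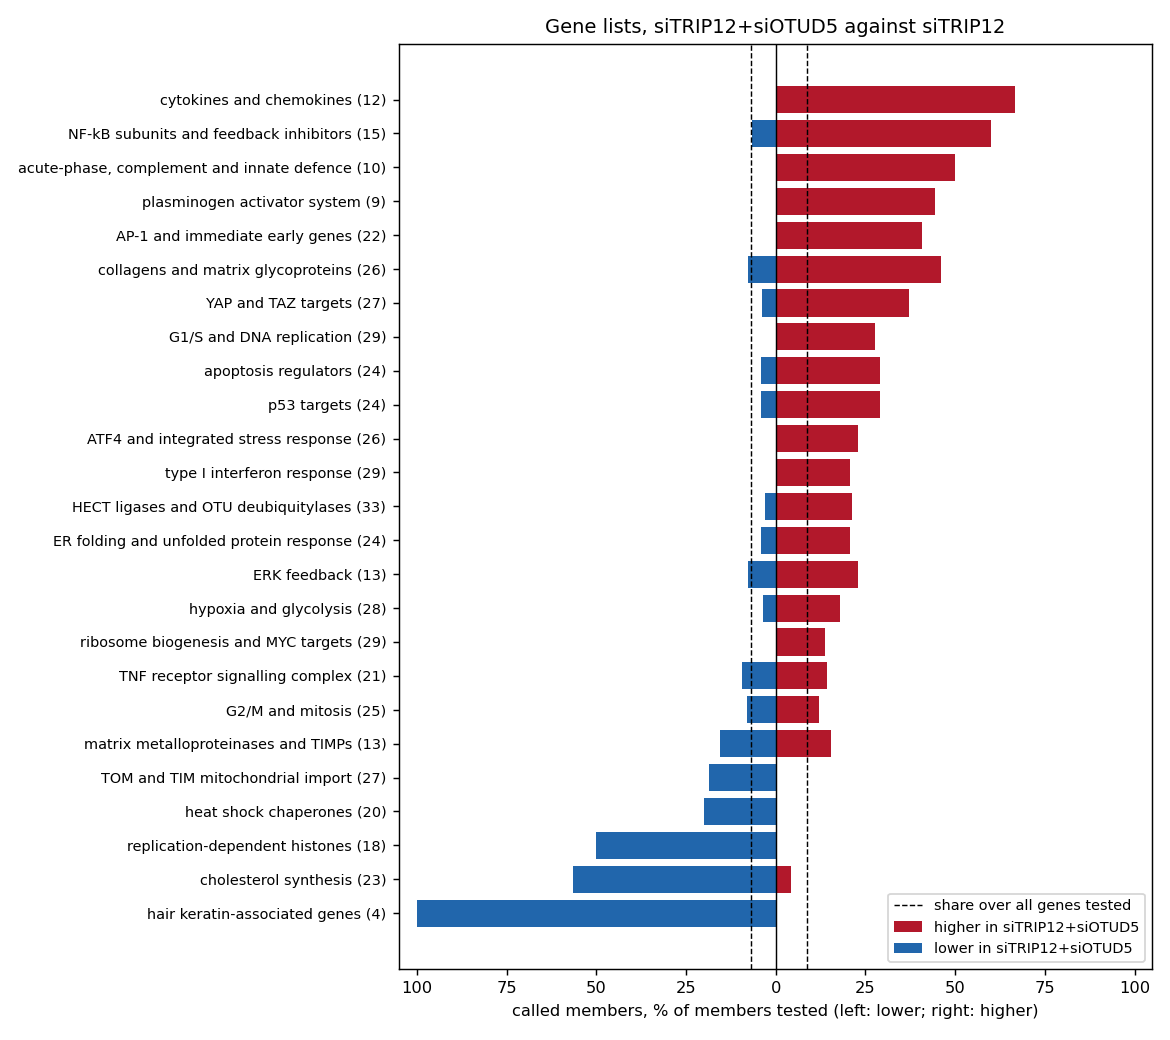
Share of the tested members of 25 gene lists (tested number in brackets) that were called higher (red, right) or lower (blue, left) in siTRIP12+siOTUD5 than in siTRIP12; dashed lines give the shares over all genes tested, 8.78% higher and 6.93% lower. Cytokines (8 of 12), NF-kB subunits and inhibitors (9 of 15) and acute-phase genes (5 of 10) lead the rises, and hair keratin-associated genes (4 of 4), cholesterol synthesis (13 of 23) and histones (9 of 18) the falls.

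The effect of siOTUD5 in TRIP12-depleted cells was then set beside its effect in cells with TRIP12, which uses none of the same libraries. siOTUD5 against Scrambled called 3781 genes (23.2%; 1849 higher or 11.4%, 1932 lower or 11.9%). Of the 2557 genes changed by adding siOTUD5 to siTRIP12, 1026 were called the same way by siOTUD5 alone, 515 higher and 511 lower, which is 40.1% of them and 27.1% of the siOTUD5 calls. Another 104 were called the opposite way and 1427 were not called with siOTUD5 alone. Across 16281 genes, without TRIP12 and OTUD5, the log2 changes had a Pearson's r of 0.151 and a Spearman's rho of 0.306, a description over genes that share their libraries. Without siTRIP12+siOTUD5 replicate 1, 650 were called the same way, and without replicate 3 of both groups 640.

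The difference between these effects was tested for every gene as an interaction, which called 1329 genes (8.16%). For the restored inflammatory genes the effects were far apart. SAA1 rose by 2.01 ± 0.11 on adding siOTUD5 to siTRIP12, and siOTUD5 alone changed it by -0.44 ± 0.10 (edgeR interaction adjusted p = 4.7e-08). BIRC3 rose by 1.5 ± 0.14 with siTRIP12 and stood at 0.01 ± 0.13 with siOTUD5 alone (edgeR interaction adjusted p = 8e-05). ESM1, MMP3 and the KRTAP2 genes fell with siTRIP12 and rose with siOTUD5 alone. For ESM1 the interaction was -3.73 ± 0.27 (edgeR adjusted p = 1.9e-07), and for MMP3 it was -2.64 ± 0.17 (adjusted p = 1.6e-07). TOMM22 fell in both settings, by 1.67 with siTRIP12 and 2.22 without it on the log2 scale (edgeR interaction adjusted p = 0.0022), and for IL1A (0.94 ± 0.12 and 1.00 ± 0.12) and CLU (-0.93 ± 0.06 and -0.82 ± 0.06) the interaction was not called, at -0.06 ± 0.17 and -0.10 ± 0.09.

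**Figure D5:**
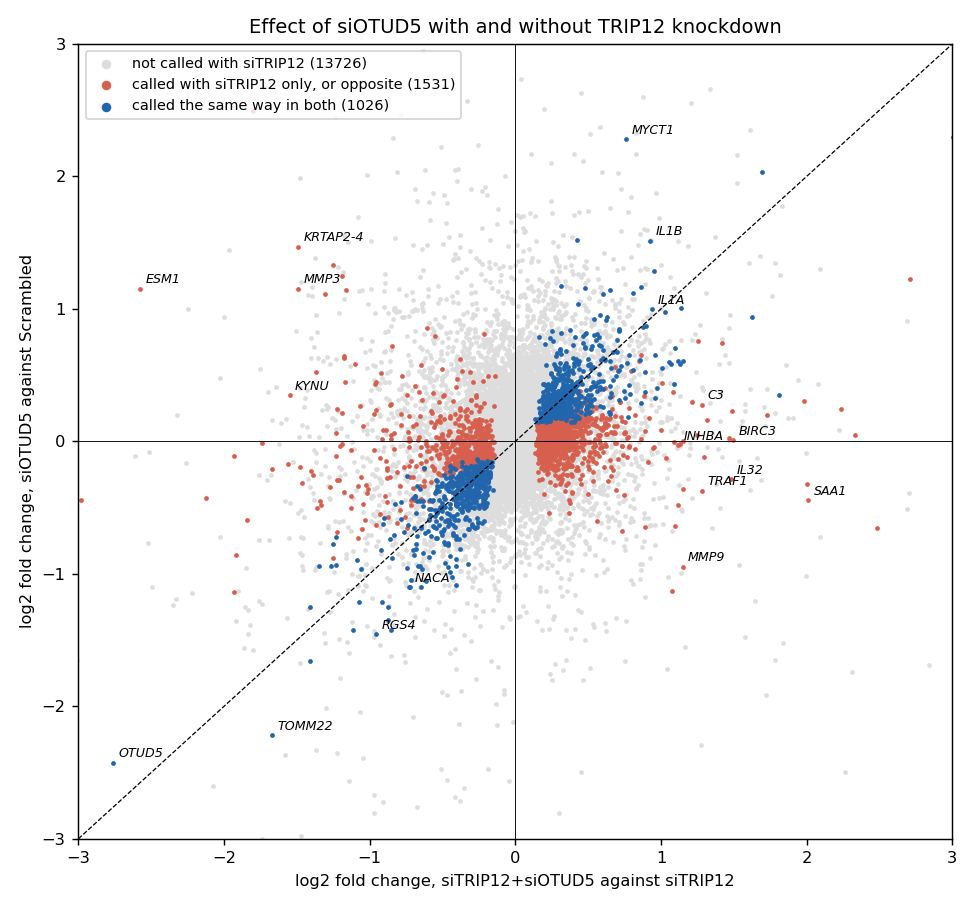
Log2 fold change on adding siOTUD5 to siTRIP12 (x axis, siTRIP12+siOTUD5 against siTRIP12) and on siOTUD5 alone (y axis, siOTUD5 against Scrambled), one point per tested gene, with equality on the dashed line. The 1026 genes called the same way in both (blue) include OTUD5, TOMM22 and IL1A near the line, whereas SAA1, BIRC3 and IL32 on the right and ESM1, KRTAP2-4 and MMP3 on the left lie away from it; 75 genes are outside the axes.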

How the data were processed

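RNA of HT1080 cells was sequenced in 12 libraries, 3 for each of 4 siRNA groups. Per the labels' protocols, total RNA was purified on columns and made into TruSeq stranded mRNA libraries. The submitters' processing notes name GRCh38, HISAT2 and StringTie without versions. The authors deposited 1 table of raw read counts per gene with FPKM values beside them, as its header names them. TPM values deposited by the authors in the same table were not used. Both TPM and FPKM values are normalised for transcript length and depth. The FPKM values served only to derive transcript lengths from the counts, for the length correlations and the length correction. Whether a count is a read or a fragment is not given in the sources used here.

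Counts were fitted with edgeR 4.0.16 (R 4.3.3) over all 12 libraries, with filterByExpr (30144 genes removed), TMM scaling and the robust quasi-likelihood test, which had 8 residual degrees of freedom. P-values were adjusted by Benjamini-Hochberg over 16283 genes, and a change was called at an adjusted p under 0.05. Printed CPM use TMM-adjusted totals. Alternatives used DESeq2 1.42.0, limma 3.58.1, other scalings and filters, and libraries left out. The procedure was tested on simulated data.

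Named genes were the targeted genes, the 10 largest protein-coding rises and falls on adding siOTUD5 with at least 100 reads on average and no overlap, the largest of each class, and up to 4 members of each list with the smallest p in that comparison, plus members counted in sentences. A few other list members are named for contrast, chosen after their values were seen. The members and the 29 gene lists were chosen with earlier results of these data known. Promoter sequences are from RefSeq, GRCh38.p14. Values of some genes are not reported here.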

Additional observations from a re-analysis of the deposited data

Results flagged for a closer look

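For 33 of the 57 genes named for the size of their change or their class, the change made by siOTUD5 differed between TRIP12-depleted cells and cells with TRIP12 by the interaction test (edgeR, adjusted p under 0.05). Over all genes tested this interaction was called for 8.16%. The 57 genes were picked by values that enter this difference, so a high share among them is a result of the choice and no test. The values below are the log2 change on adding siOTUD5 to siTRIP12 minus the log2 change of siOTUD5 against Scrambled, and no cause was tested. The difference was positive for 20 genes. It was largest for the acute-phase genes SAA1 (2.46) and SAA2 (2.33), which may share reads, then MMP9 (2.10), IL32 (1.77), TRAF1 (1.65) and BIRC3 (1.49). INHBA and ANKRD46 (1.15 each), TGFB2 (1.06), C3 (1.01), CGB5 (0.93), a member of a family of similar genes, and TMEM245 (0.91) followed. Smaller values were found for ZNF404 (0.63), NLRP3 (0.57), IL11 and TOMM22 (0.55 each), NTM (0.54), NACA and TRIP12 itself (0.38 each) and CALD1 (0.36).

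The difference was negative for 13 genes. These were ESM1 (-3.73), the paralogs KRTAP2-4 (-2.96) and KRTAP2-1 (-2.58), MMP3 (-2.64), KYNU (-1.90), MYCT1 (-1.52), IL24 (-1.38), CD22 (-1.32), SLC4A8 (-1.18), GDF15 (-1.12), the histone genes H2BC4 (-0.79) and H2AC6 (-0.51), and SESN2 (-0.50). The 95 genes named only as members of a list are not in these counts, and some of them were called as well, among them KRTAP2-3 (-2.44), KRTAP2-2 (-2.31) and MMP1 (-1.18).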

How the results depend on the processing

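No named gene that was called on adding siOTUD5 turned direction under any alternative that tested it. The balance of counts did turn in places. Genes of mitosis gave 3 rises and 2 falls, but 0 rises and 1 fall without siTRIP12+siOTUD5 replicate 3. Requiring a change beyond 1.5-fold (glmTreat) left 34 genes called on adding siOTUD5 (22 higher, 12 lower), 24 restored, 83 kept, 1 extended and 3 newly made, with 4 called the same way by siOTUD5 alone. Leaving out replicate 3 of siTRIP12+siOTUD5 and of siTRIP12, an alternative chosen after seeing the data, gave 1302 calls (773 higher, 529 lower), 630 restored (569 of them among the 1212), 72 extended, 436 newly made and 640 called the same way. With 1 library left out at a time, calls ran from 1495 to 3825 (892 to 2133 higher, 603 to 1692 lower), restored genes from 774 to 1778, TRIP12-knockdown changes kept from 2069 to 2389, extended from 99 to 276 and newly made from 425 to 1031. The count with the siOTUD5 effect called the same way with and without siTRIP12 ran from 650 to 1319. The cause was not tested. The replicate block gave 2396 calls (1358 higher, 1038 lower) and 1136 restored, but deviations of same-numbered libraries correlated at 0.00566, -0.0188 and 0.000368, so the numbers do not pair the libraries. Upper-quartile scaling gave 1254 higher and 1271 lower (49.7% higher, against 55.9%). DESeq2 called 3014 genes. A length correction gave 1536 restored, with 1106 of the 1212 among them. Among named genes, TOP2A, KIF23, CCNB1 and CHUK most often lost their call. With 3 libraries a group, small changes of low genes such as CCL20 and IL6 have wide errors.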
